A study of Homo sapiens with 15 samples.

Results

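Within a single RNA-seq experiment on HepG2 cells, the libraries carrying replicate numbers 3 and 4 were compared with those carrying numbers 1 and 2. The 2 sets were formed by the numbers in the sample labels and column names. The choice to compare them, and the gene lists, came with earlier results of these data known. Of 15 libraries, 7 are numbered 3 or 4 (2 from the BRG1 knockdown, 1 from the BRM knockdown, 2 from the double knockdown and 2 from the non-silencing control, NS) and 8 are numbered 1 or 2 (2 from each of these 4 groups). HepG2 is an established human liver cancer cell line. The hairpins were shBrg1, shBrm, both together (shDouble) or shNS, and BRG1 (SMARCA4) and BRM (SMARCA2) are the alternative ATPases of SWI/SNF chromatin remodelling complexes. All 4 groups received lentivirus with polybrene at 8 µg per mL and puromycin selection, and RNA was taken 5 days after transduction, so the NS cells share the vector, the drug and the time with the knockdowns. The study measured mRNA by sequencing, and libraries are named below by group and number, as in BRG1 3.

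The labels do not say what a shared replicate number stands for, nor that replicates are separate cultures. Differences in culture, RNA, library preparation and sequencing between the sets cannot be told apart. Spread between libraries, on which the p-values rest, may be technical. The comparison addresses which genes separate the 2 sets at equal knockdown, and whether they do so alike in all 4 groups.

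HepG2 cells keep much of the hepatocyte program, including secretion of plasma proteins, lipoprotein assembly and synthesis of cholesterol and fatty acids. Many of these genes follow nutrient sensors: SREBP proteins raise sterol and fatty acid synthesis genes when sterols are scarce, ATF4 raises genes of amino acid synthesis and transport, and MTF1 raises metallothionein genes when zinc is high. Mitochondrially encoded mRNAs are made from their own genome by their own polymerase.

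Several libraries stood apart from their own set. The first component of within-group deviations in log2 CPM (counts scaled to library totals after TMM) held 53.3% of the variance, and libraries 3 and 4 scored 16.1 to 54.1 on it, against -51.9 to -4.59 in libraries 1 and 2. Double 3 and BRM 2 lay nearest to the other set, followed by BRG1 3 at 34.0. Mitochondrially encoded genes took 4.97% of counts in BRM 2, against 6.65 to 8.33% in the other libraries 1 and 2. The share of counts from pseudogenes went in different directions, with 1.85 and 2.01% in BRG1 3 and 4 against 0.825 and 0.894% in BRG1 1 and 2, 1.22% in BRM 3 against 0.880 and 1.24% in BRM 1 and 2, 0.730 and 0.823% in double 3 and 4 against 0.841 and 0.888% in double 1 and 2 and 2.87 and 1.67% in NS 3 and 4 against 1.08 and 0.967% in NS 1 and 2. The pseudogene share was 0.637 percentage points higher in libraries 3 and 4 (exact permutation test within groups, two-sided, p = 0.0278, adjusted 0.0463). The share of the 10 most abundant genes differed by -1.99 percentage points (exact permutation test within groups, two-sided, p = 0.00154, adjusted 0.00772). Genes with at least 1 count differed by -426 in number (exact permutation test within groups, two-sided, p = 0.227). Totals were 11500149 to 27187991 counts in libraries 3 and 4 and 11556412 to 23302912 in libraries 1 and 2 (exact permutation test within groups, two-sided, p = 0.0941, adjusted 0.118). Hepatocyte markers were abundant in all libraries, with a summed level over 10 genes of 11086 to 51638 CPM in libraries 3 and 4 and 5581 to 52876 CPM in libraries 1 and 2. SMARCA4 (0.06, adjusted p = 0.634) and SMARCA2 (-0.09, adjusted p = 0.653) were not called between the sets (edgeR, log2 differences).

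**Figure D1:**
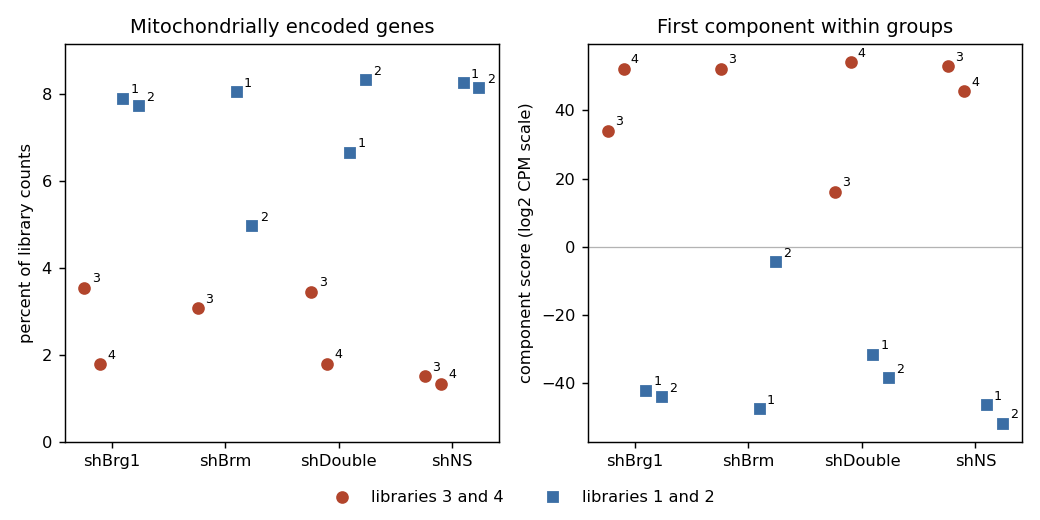
Percent of counts from mitochondrially encoded genes and score on the first component of within-group deviations, with 1 point per library by knockdown group. All 7 libraries 3 and 4 lie at 1.33 to 3.55% mitochondrial counts, below all 8 libraries 1 and 2, and on the component BRM 2 and double 3 lie between the other libraries.

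Of 14621 genes tested, 8134 (55.6%) differed between the sets in edgeR's quasi-likelihood test with knockdown group as covariate, at a Benjamini-Hochberg adjusted p under 0.05. Of these, 3991 (27.3%) were higher and 4143 (28.3%) lower in libraries 3 and 4. Called differences of at least 2-fold numbered 1945 (13.3%), 922 (6.31%) of them higher and 1023 (7%) lower. In 4461 genes (30.5%) the libraries 3 and 4 of every group lay on one side of the libraries 1 and 2 of that group, above them in 2501 (17.1%) and below them in 1960 (13.4%). With the sets as covariate, 5720 genes (39.1%) were called for BRG1 knockdown against NS, 4684 (32%) for BRM knockdown and 5646 (38.6%) for double knockdown. All differences below are log2 differences of libraries 3 and 4 minus libraries 1 and 2, and "rose" and "fell" refer to libraries 3 and 4.

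The direction of the set difference moved with base composition. Genes called higher had a median transcript GC content of 58.2%, genes called lower 44.7% and genes not called 48.7%. Across 10 equal bins of the genes ordered by GC content, the median difference was -0.36 in the bin with the lowest GC content and 0.58 in the bin with the highest. The difference between these bins had the same direction in all 4 groups and was smallest in NS (-0.23 and 0.22). A correction for GC content and transcript length, added after the data were seen, brought the medians of the bins to between 0.01 and 0.13. It left 7022 genes (48%) called, 4115 (28.1%) higher and 2907 (19.9%) lower, and 5293 genes (36.2%) were called in the same direction with and without it. The part of GC content in any single difference was not tested, and corrected results are given for each list, as the numbers called higher and lower, and for some genes, as the difference. Counts of each list below are to be read against the shares over all genes, 27.3% higher and 28.3% lower (corrected 28.1 and 19.9%).

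**Figure D2:**
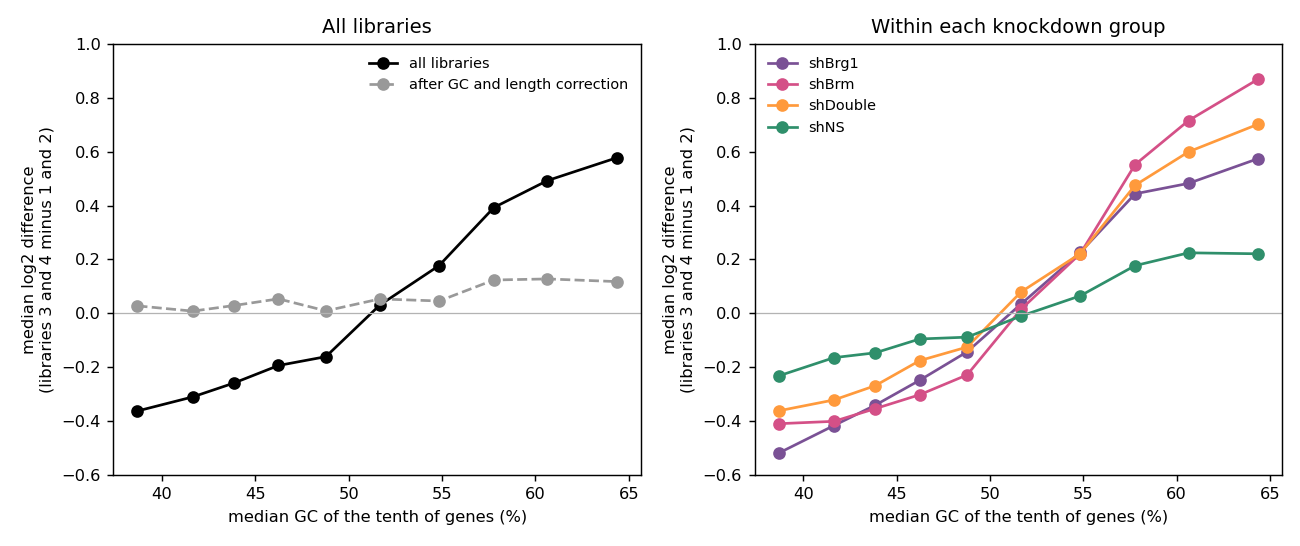
Median log2 difference (libraries 3 and 4 minus libraries 1 and 2) in 10 bins of the genes by transcript GC content, for all libraries with and without the GC and length correction, and within each knockdown group. The uncorrected medians lie between -0.36 and 0.58 and the corrected ones between 0.01 and 0.13.

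All 13 mitochondrially encoded mRNAs, which encode core subunits of the respiratory chain and ATP synthase, fell in libraries 3 and 4. Their median difference was -1.58, against -0.06 for all genes tested. After GC and length correction 13 of 13 were still called lower, with a median of -1.39. Without BRM 2, BRG1 3 and double 3 the median was -2.02. That setting was added after the data were seen. It leaves out the libraries nearest to the other set on the first component, so a larger difference there adds no evidence. Their share of all counts differed by -5.21 percentage points at equal group (exact permutation test within groups, two-sided, p = 0.00309, adjusted over 5 measures 0.00772).

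MT-ND6, a complex I subunit and the only mRNA encoded on the light strand, had the largest fall. It stood at 671 and 274 CPM in BRG1 3 and 4, 599 CPM in BRM 3, 646 and 329 CPM in double 3 and 4 and 223 and 209 CPM in NS 3 and 4. In the other set it stood at 2034 and 1816 CPM in BRG1 1 and 2, 2177 and 1222 CPM in BRM 1 and 2, 1704 and 2377 CPM in double 1 and 2 and 2287 and 2066 CPM in NS 1 and 2. The sets did not overlap, and BRM 2 was the lowest of libraries 1 and 2. MT-ND6 fell by 2.28 (SE 0.28, adjusted p = 1.38e-05, edgeR quasi-likelihood). MT-ND5, its neighbour on the heavy strand and also of complex I, fell by 2.0. The smallest falls were those of MT-ND3, of complex I, at -0.85, and MT-CO3, of complex IV, at -0.94. MT-ND3 had 375 to 720.5 CPM (median 584) in libraries 3 and 4 and 841 to 1198 CPM (median 948) in libraries 1 and 2. The median over the 13 mRNAs was -1.41 in BRG1 knockdown, -0.97 in BRM knockdown, -1.46 in double knockdown and -2.54 in NS. The smallest adjusted p for an interaction of set and knockdown among them was 0.098, so a difference between the groups was not shown, while the interaction was called for 788 genes (5.39%) of all tested. MTRNR2L12, a nuclear copy of mitochondrial rRNA sequence whose reads may be shared with its source, fell by 1.20.

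The nuclear genes of the respiratory chain were called higher more often than lower. Among 40 nuclear-encoded subunits, 21 rose and 4 fell (median 0.23; corrected 19 and 1), including CYC1, cytochrome c1 of complex III, at 1.47 and UQCRC1, a core subunit of that complex, at 1.32. Of 31 genes of mitochondrial transcription and RNA processing, 9 rose and 10 fell (corrected 14 and 5). POLRMT, the mitochondrial RNA polymerase, had 208 to 377 CPM (median 256) in libraries 3 and 4 and 80.7 to 143 CPM (median 101) in libraries 1 and 2. The sets did not overlap, and POLRMT rose by 1.44 (SE 0.10, adjusted p = 1.64e-07; corrected 0.99). TBRG4, a FASTK family protein of mitochondrial RNA, rose by 1.32, and MTERF2, of the mitochondrial termination factor family, fell by 1.28. TFAM, which packages the mitochondrial genome and helps start its transcription, was not called (0.11, adjusted p = 0.359) and was called higher after correction (0.46).

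Metallothioneins, small cysteine-rich proteins that bind zinc and copper, were among the largest increases. Of 12 genes of metallothioneins and metal transport, 7 rose and 2 fell (median 1.06; corrected 7 and 0). MT1G stood at 40.6 and 47.0 CPM in BRG1 3 and 4, 102 CPM in BRM 3, 33.6 and 34.0 CPM in double 3 and 4 and 96.3 and 31.5 CPM in NS 3 and 4. In the other set it stood at 0.868 and 0.879 CPM in BRG1 1 and 2, 0.564 and 1.35 CPM in BRM 1 and 2, 0.711 and 0.809 CPM in double 1 and 2 and 0.825 and 1.68 CPM in NS 1 and 2. The sets were far apart in every group, and MT1G rose by 5.85 (SE 0.28, adjusted p = 1.81e-08; corrected 5.86).

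MT1F had 13.5 to 76.2 CPM (median 21.7) in libraries 3 and 4 and 0.806 to 2.88 CPM (median 1.62) in libraries 1 and 2, without overlap, and rose by 4.24 (SE 0.33, adjusted p = 3.78e-07). MT1X rose by 2.61, MT1E by 2.54 and MT1M by 1.98. MT2A stood at 2739.9 and 2480.3 CPM in BRG1 3 and 4, 457 CPM in BRM 3, 1659.9 and 1708 CPM in double 3 and 4 and 519 and 362 CPM in NS 3 and 4. In the other set it stood at 1609 and 1162 CPM in BRG1 1 and 2, 35.0 and 69.0 CPM in BRM 1 and 2, 1021 and 1111 CPM in double 1 and 2 and 172 and 194 CPM in NS 1 and 2. Libraries 3 and 4 lay above libraries 1 and 2 in each group but not across groups, and all libraries of the BRM and NS groups lay below all of the other groups. MT2A rose by 1.37 (SE 0.28, adjusted p = 0.000791), with differences of 0.91 in BRG1 knockdown, 3.13 in BRM knockdown, 0.66 in double knockdown and 1.27 in NS (interaction adjusted p = 0.0152). MT1A was not called (0.34, adjusted p = 0.211). Reads can be shared between near-identical MT1 genes, so the split among them is uncertain.

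MTF1, the zinc-sensing activator of these genes, fell by 0.37 (corrected -0.13, not called). SLC39A10, a zinc importer, fell by 0.71 (corrected -0.35, not called). SLC30A1, a zinc exporter, was not called (0.26, adjusted p = 0.0958).

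The promoters of MT1X and MT2A are shown as the metallothionein promoters found among the 6 listed genes with an entry in the RefSeq table used (GRCh38.p14). Each is the 250 bases before the start, and capitals mark the core of the metal response element, TGCACNC or TGCGCNC on either strand, where matches may overlap. The window is chr16:56682220-56682469 for MT1X and chr16:56608334-56608583 for MT2A, both on the plus strand.
MT1X: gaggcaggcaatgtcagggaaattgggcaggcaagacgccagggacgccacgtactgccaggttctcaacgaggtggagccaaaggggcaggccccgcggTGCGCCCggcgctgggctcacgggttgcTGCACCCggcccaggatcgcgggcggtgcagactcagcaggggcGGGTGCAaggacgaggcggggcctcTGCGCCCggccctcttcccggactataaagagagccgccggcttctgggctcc
MT2A: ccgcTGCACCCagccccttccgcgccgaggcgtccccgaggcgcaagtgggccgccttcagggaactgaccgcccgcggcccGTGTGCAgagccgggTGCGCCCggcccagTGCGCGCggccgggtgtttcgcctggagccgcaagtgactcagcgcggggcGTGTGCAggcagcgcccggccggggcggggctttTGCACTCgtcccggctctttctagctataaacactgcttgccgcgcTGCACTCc
MT1X held 4 matches and MT2A 7. SLC30A1 held 1, so 3 of the 6 listed genes with an entry held a match. At least 1 match stood in 32.9% of the promoters of tested genes and in 24.7% of all 27305 promoters. It stood in 30.2% of those of genes called at least 2-fold higher and in 28.1% of those called at least 2-fold lower. A match is a run of letters and not a measured site.

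**Figure D3:**
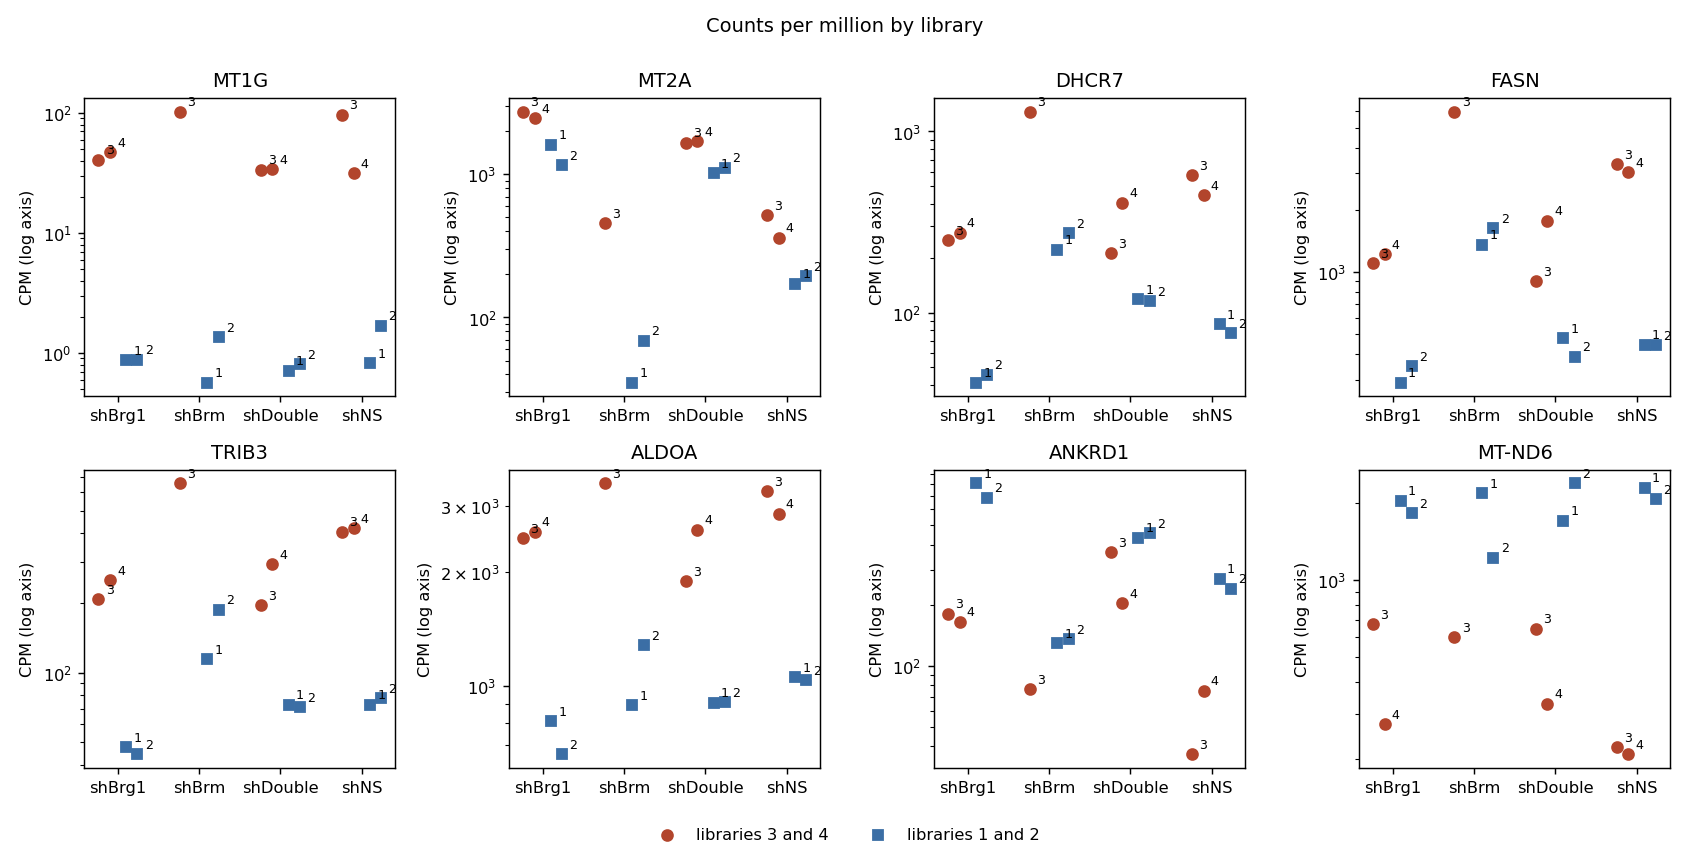
CPM by library for MT1G, MT2A, DHCR7, FASN, TRIB3, ALDOA, ANKRD1 and MT-ND6 on log axes, with 1 point per library and libraries 3 and 4 left of libraries 1 and 2 in each knockdown group. In MT1G all libraries 3 and 4 stand at 31.5 to 102 CPM, above 0.564 to 1.68 CPM in libraries 1 and 2, while in DHCR7 double 3 stands at 213 CPM, below 274 CPM in BRM 2.

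Genes of cholesterol synthesis and uptake rose in 22 of 24 cases and none fell (median 1.15; corrected 23 and 0). DHCR7, which makes the last reduction of cholesterol synthesis, stood at 251 and 276 CPM in BRG1 3 and 4, 1285 CPM in BRM 3, 213 and 404 CPM in double 3 and 4 and 574 and 443 CPM in NS 3 and 4. In the other set it stood at 40.9 and 45.4 CPM in BRG1 1 and 2, 222 and 274 CPM in BRM 1 and 2, 119 and 115 CPM in double 1 and 2 and 85.9 and 77.1 CPM in NS 1 and 2. Libraries 3 and 4 lay above libraries 1 and 2 in each group, and the sets overlapped across groups, with both sets of the BRM group high. DHCR7 rose by 2.25 (SE 0.19, adjusted p = 4.88e-07; corrected 1.96).

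MVK, mevalonate kinase, rose by 1.78 and LSS, which closes the sterol rings, by 1.5. NSDHL, a sterol dehydrogenase, rose by 1.29. SREBF2, which encodes the SREBP of the sterol branch, rose by 1.31. ACAT2, the cytosolic thiolase at the start of the pathway, rose by 0.97, with differences of 1.90 in BRG1 knockdown, 0.29 in BRM knockdown, -0.16 in double knockdown and 1.59 in NS (interaction adjusted p = 0.00206). The interaction was called for 13 of the 24 genes, and the median of the list was 1.51 in BRG1 knockdown, 0.95 in BRM knockdown, 0.48 in double knockdown and 1.65 in NS.

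The SREBF2 promoter (chr22:41832855-41833104, plus strand, RefSeq GRCh38.p14) is shown because it held the 1 match among the 17 listed genes with an entry to the sterol regulatory element letters TCACNCCAC on either strand, in capitals.
SREBF2: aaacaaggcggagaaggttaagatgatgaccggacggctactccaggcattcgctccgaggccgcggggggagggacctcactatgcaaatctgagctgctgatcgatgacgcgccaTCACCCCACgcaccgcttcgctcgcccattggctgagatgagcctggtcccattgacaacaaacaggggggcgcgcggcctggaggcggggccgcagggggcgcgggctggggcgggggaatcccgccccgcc
These letters stood in 0.856% of the promoters of tested genes, 1.61% of those of genes called at least 2-fold higher and 0.699% of those called at least 2-fold lower. In the other listed genes they are not in this window, nor in the 23 promoters found for genes of fatty acid and triglyceride synthesis. Their absence says nothing of other forms or positions of the element.

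In fatty acid and triglyceride synthesis 16 of 27 genes rose and none fell (median 0.60; corrected 19 and 0). FASN, the fatty acid synthase, had 903 to 5969 CPM (median 1772) in libraries 3 and 4 and 289.9 to 1625 CPM (median 442) in libraries 1 and 2. The sets overlapped across groups but in no group, and FASN rose by 2.09 (SE 0.18, adjusted p = 4.69e-07; corrected 1.65). FADS2, the delta-6 desaturase, rose by 2.49, ACSS2, the cytosolic acetyl-CoA synthetase, by 1.45, and SREBF1, which encodes the SREBP of the fatty acid branch, by 1.09. SCD, the delta-9 desaturase, rose by 1.46, with differences of 1.93 in BRG1 knockdown, 0.92 in BRM knockdown, 0.29 in double knockdown and 2.49 in NS (interaction adjusted p = 0.00305). In fatty acid oxidation 7 of 24 genes rose and 4 fell (median 0.03; corrected 7 and 2). FABP1, the liver fatty acid carrier, rose by 1.89 over all groups, with differences of 3.96 in BRG1 knockdown, 1.61 in BRM knockdown, -0.68 in double knockdown and 2.59 in NS (interaction adjusted p = 0.0154), and its difference in double knockdown was -3.27 relative to that in NS (adjusted p = 0.0189).

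Of 40 genes of the ATF4 amino acid response, 25 rose and 3 fell (median 0.57; corrected 25 and 3). TRIB3, a pseudokinase induced by ATF4, stood at 208 and 251 CPM in BRG1 3 and 4, 655 CPM in BRM 3, 195 and 294 CPM in double 3 and 4 and 405 and 420.1 CPM in NS 3 and 4. In the other set it stood at 47.5 and 44.4 CPM in BRG1 1 and 2, 114 and 187 CPM in BRM 1 and 2, 72.9 and 70.8 CPM in double 1 and 2 and 72.6 and 77.5 CPM in NS 1 and 2. Every library 3 or 4 lay above every library 1 or 2, and BRM 2 was the highest of libraries 1 and 2. TRIB3 rose by 2.17 (SE 0.13, adjusted p = 1.07e-07). PHGDH, the first enzyme of serine synthesis, rose by 1.96, SLC6A9, a glycine transporter, by 1.69, SHMT2, the mitochondrial serine hydroxymethyltransferase, by 1.37, SLC1A5, a glutamine transporter, by 1.24 and ASNS, asparagine synthetase, by 1.0. The mRNA of ATF4 itself was not called (0.06, adjusted p = 0.65), with 246 to 417 CPM (median 327) in libraries 3 and 4 and 164 to 439 CPM (median 390.4) in libraries 1 and 2. NUPR1, a stress-induced nuclear protein, fell by 0.78, with differences of 0.54 in BRG1 knockdown, -0.78 in BRM knockdown, -1.07 in double knockdown and -1.80 in NS (interaction adjusted p = 0.0022).

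The ASNS promoter (chr7:97872409-97872658, minus strand, RefSeq GRCh38.p14) is shown because ASNS and ATF3 were the 2 of 27 listed genes with an entry that matched the C/EBP-ATF element letters TGATGNAA on either strand, in capitals.
ASNS: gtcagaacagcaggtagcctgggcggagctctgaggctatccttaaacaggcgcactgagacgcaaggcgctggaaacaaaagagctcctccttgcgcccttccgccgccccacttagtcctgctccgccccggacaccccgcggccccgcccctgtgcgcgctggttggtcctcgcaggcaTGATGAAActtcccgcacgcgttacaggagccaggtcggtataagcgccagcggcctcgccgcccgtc
These letters stood in 1.5% of the promoters of tested genes, 2.09% of those of genes called at least 2-fold higher and 2.45% of those called at least 2-fold lower.

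Of 39 genes of glycolysis and the hypoxia response, 22 rose and 5 fell (median 0.43; corrected 23 and 3). ALDOA, aldolase A, had 1895 to 3438 CPM (median 2593) in libraries 3 and 4 and 660.4 to 1283 CPM (median 906) in libraries 1 and 2, without overlap, and rose by 1.57 (SE 0.11, adjusted p = 1.64e-07). GPI, which makes fructose-6-phosphate, rose by 1.53, GAPDH by 1.36, ENO1, enolase, by 1.36, PKM, pyruvate kinase, by 1.33 and SLC2A1, the glucose transporter GLUT1, by 1.35. EPO, which encodes erythropoietin, a textbook target of hypoxia-inducible factors, had 2.32 to 11.6 CPM (median 7.15) in libraries 3 and 4 and 0.155 to 4.2 CPM (median 2.51) in libraries 1 and 2. The sets overlapped across groups but in no group, and EPO rose by 2.14. ADM, adrenomedullin, another such target, fell by 0.94. Of the pentose phosphate pathway, PGD rose by 1.13 and TKT by 1.14. In gluconeogenesis, the urea cycle and amino acid breakdown 17 of 28 genes rose and 1 fell (median 0.61; corrected 15 and 2).

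**Figure D4:**
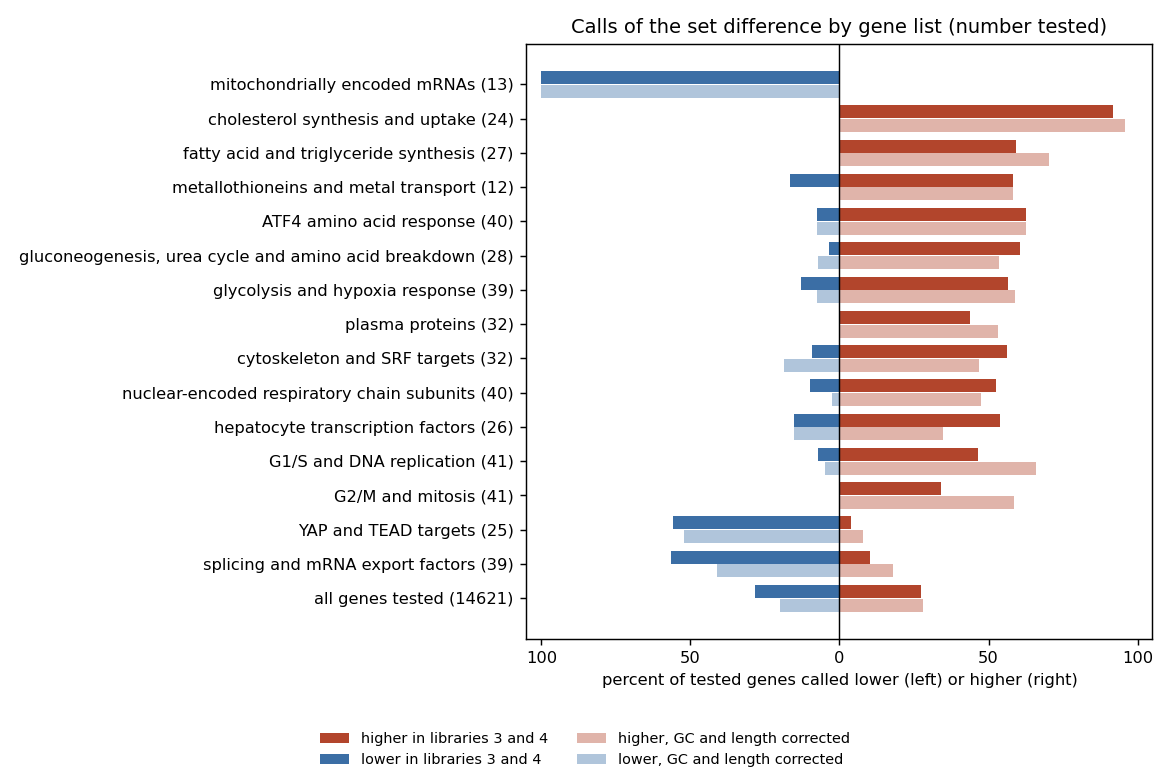
Percent of the tested genes of each list called higher or lower in libraries 3 and 4 than in libraries 1 and 2, with paler bars for the GC and length corrected fit. Cholesterol synthesis and uptake, with 22 of 24 genes higher, and the mitochondrially encoded mRNAs, with 13 of 13 lower, lie far from all genes, of which 27.3% were higher and 28.3% lower.

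The set difference of many plasma protein genes differed by knockdown. Of 32 genes, 14 rose and none fell (median 0.69; corrected 17 and 0), 16 had a called interaction, and their median difference was 1.63 in BRG1 knockdown, 0.38 in BRM knockdown, -0.08 in double knockdown and 0.43 in NS. SERPINA3, alpha-1-antichymotrypsin, had 213 and 253 CPM in BRG1 3 and 4 against 15 and 11 CPM in BRG1 1 and 2, and 856 and 898 CPM in NS 3 and 4 against 177 and 142 CPM in NS 1 and 2. It rose by 2.48 over all groups (SE 0.36, adjusted p = 5.85e-05; interaction adjusted p = 0.0225). FGA, the fibrinogen alpha chain, rose by 1.74, with differences of 3.76 in BRG1 knockdown, 0.88 in BRM knockdown, 0.34 in double knockdown and 1.84 in NS (interaction adjusted p = 0.0111). ALB, albumin, stood at 2912 and 3379 CPM in BRG1 3 and 4, 13879 CPM in BRM 3, 1384 and 2451 CPM in double 3 and 4 and 8579 and 8182 CPM in NS 3 and 4. In the other set it stood at 873 and 684 CPM in BRG1 1 and 2, 17437 and 19265 CPM in BRM 1 and 2, 2568 and 2437 CPM in double 1 and 2 and 6375 and 6491 CPM in NS 1 and 2. Libraries 3 and 4 lay above libraries 1 and 2 in the BRG1 and NS groups, BRM 3 lay below both other BRM libraries, and the sets overlapped in the double knockdown. It was not called over all groups (0.46, adjusted p = 0.207; corrected 0.79, called), and the difference was 2.01 in BRG1 knockdown, -0.40 in BRM knockdown, -0.38 in double knockdown and 0.38 in NS (interaction adjusted p = 0.00566).

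Of 26 hepatocyte transcription factors, 14 rose and 4 fell (median 0.50; corrected 9 and 4). FOXA3, a forkhead factor, had 48.3 to 172 CPM (median 91.8) in libraries 3 and 4 and 13 to 47.7 CPM (median 27.5) in libraries 1 and 2, without overlap, and rose by 1.95 (SE 0.18, adjusted p = 9.16e-07). CEBPA, a leucine zipper factor of liver and fat, rose by 1.19. HNF4A, the nuclear receptor of hepatocyte identity, rose by 0.52 but was not called after correction (0.20). Of 21 apolipoprotein and lipoprotein genes 9 rose and 1 fell (median 0.63; corrected 6 and 3), with APOB at 1.0 (corrected 1.22) and APOA1 at 0.83 (corrected 0.39, not called). The apolipoprotein and lipoprotein median was 1.08 in BRG1 knockdown, 0.23 in BRM knockdown, -0.11 in double knockdown and 0.25 in NS. An interaction was called for 6 of these 21 genes. In drug and steroid metabolism 5 of 27 genes rose and 6 fell (corrected 7 and 5).

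In G1/S and DNA replication 19 of 41 genes rose and 3 fell (median 0.36; corrected 27 and 2), and in G2/M and mitosis 14 of 41 rose and none fell (median 0.20; corrected 24 and 0). CDT1, the origin licensing factor, rose by 1.7, MCM2, of the replicative helicase, by 1.69, PLK1, the mitotic kinase, by 1.57 and CDC20, an activator of the anaphase-promoting complex, by 1.31. The G1/S median was 0.95 in BRG1 knockdown, -0.02 in BRM knockdown, -0.03 in double knockdown and 0.35 in NS. The G2/M median was 0.79 in BRG1 knockdown, -0.11 in BRM knockdown, -0.32 in double knockdown and 0.38 in NS. An interaction was called for 13 of the G1/S and 9 of the G2/M genes, against 5.39% of all genes tested.

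Targets and partners of YAP fell in 14 of 25 genes, and 1 rose (median -0.44; corrected 2 and 13). ANKRD1, an ankyrin repeat protein that YAP induces, had 36.3 to 367 CPM (median 166) in libraries 3 and 4 and 129.8 to 804 CPM (median 351) in libraries 1 and 2. The sets overlapped across groups but in no group, and ANKRD1 fell by 1.48 (SE 0.25, adjusted p = 0.00021). CYR61, a matricellular protein, fell by 1.43 and TEAD1, a DNA-binding partner of YAP, by 1.15, while its paralog TEAD4 rose by 0.98. FOS, a subunit of AP-1, had 0.277 to 3.83 CPM (median 1.77) in libraries 3 and 4 and 0.400 to 17.8 CPM (median 10.8) in libraries 1 and 2, with overlap across groups but within none, and fell by 2.52 (SE 0.22, adjusted p = 4.32e-07). The immediate early and AP-1 genes had 8 of 34 higher and 9 lower (median -0.06; corrected 4 and 10), with ETV4, an ETS factor, at 1.94. In the cytoskeleton and SRF list 18 of 32 genes rose and 3 fell (median 0.46; corrected 15 and 6), with FLNA, an actin cross-linker, at 1.33, ZYX, of focal adhesions, at 1.26 and TPM2, beta-tropomyosin, at -2.29. TGFB2, a TGF-beta ligand, fell by 1.92.

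Splicing and mRNA export factors fell in 22 of 39 genes, and 4 rose (median -0.34; corrected 7 and 16). PNISR, a serine- and arginine-rich nuclear protein, had 15.2 to 27.5 CPM (median 23.4) in libraries 3 and 4 and 15.6 to 106 CPM (median 58.2) in libraries 1 and 2, and BRM 2 was the lowest of libraries 1 and 2, within the range of libraries 3 and 4. PNISR fell by 1.54 (SE 0.23, adjusted p = 8.19e-05; corrected -1.05). SRSF11, an SR-family splicing factor, fell by 1.36 and CLK1, a kinase of SR proteins, by 1.15, while U2AF2, which reads the polypyrimidine tract, rose by 0.75.

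Of 26 chaperones of the unfolded protein response 11 rose and none fell (corrected 16 and 0). Of 27 targets of NRF2, a regulator of antioxidant genes, 13 rose and 7 fell (median 0.35; corrected 11 and 1). With NS libraries only 7 were higher and 11 lower. The interaction was called for 11 of them, and the list median was 0.88 in BRG1 knockdown, 0.06 in BRM knockdown, 0.23 in double knockdown and -0.19 in NS. Several other lists had calls in both directions. Over all genes tested 27.3% were higher and 28.3% lower (corrected 28.1 and 19.9%), and counts near these shares set a list apart in no way. Of the lists that follow, ribosome biogenesis, autophagy, interferon and proteasome genes lay furthest above the uncorrected share of higher genes. Cytosolic ribosomal proteins had 20 of 55 higher and 15 lower (corrected 18 and 8). In the same order, mitochondrial ribosomal proteins had 11 of 30 and 9 (corrected 13 and 2), ribosome biogenesis 15 of 28 and 4 (corrected 18 and 4), proteasome and ubiquitin genes 13 of 30 and 8 (corrected 19 and 1) and heat shock genes 6 of 22 and 7 (corrected 7 and 2). Likewise p53 targets had 9 of 31 and 8 (corrected 9 and 6), Wnt targets 7 of 24 and 9 (corrected 6 and 9) and interferon and MHC class I genes 16 of 35 and 7 (corrected 14 and 7). Autophagy and lysosome genes had 17 of 36 and 7 (corrected 17 and 4), iron handling 4 of 15 and 4 (corrected 5 and 5) and SWI/SNF subunits 9 of 27 and 8 (corrected 9 and 6). In bulk RNA, fewer cells of a kind and less RNA per cell cannot be told apart.

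The largest decreases included several multicopy genes and pseudogenes. Of 251 transcribed unprocessed pseudogenes tested, 19 rose and 137 fell, against 3764 and 3703 of 13258 protein-coding genes. Processed pseudogenes did not share this skew, with 75 of 398 higher and 88 lower. These are numbers of genes, while the share of counts from all pseudogenes was higher in libraries 3 and 4. GOLGA8A had 1.97 to 13 CPM (median 3.04) in libraries 3 and 4 and 5.75 to 56.9 CPM (median 34.5) in libraries 1 and 2, and BRM 2 was the lowest of libraries 1 and 2. GOLGA8A fell by 2.83 (SE 0.46, adjusted p = 0.000142), and its near-identical golgin copy GOLGA8B by 2.83, with reads that may be split between them. AHSA2 fell by 3.06, PABPC1L, of the poly(A)-binding protein family, by 2.78, GABRE, a GABA receptor subunit, by 2.68 and TTLL3, a tubulin glycylase, by 2.59. Without BRM 2, BRG1 3 and double 3 the difference was -3.86 for GOLGA8A, -4.12 for AHSA2 and -3.94 for PABPC1L. Those libraries were left out after the data were seen, as the nearest to the other set, so larger differences may follow from that choice. TBC1D3L, GOLGA6L4 and the pseudogenes FAR2P1 and AC138393.1, all with related copies, fell by 2.73, 2.65, 2.63 and 2.72. AC015813.2 and, among the largest increases, AC104662.2, AC034102.2, AL591806.3 and AC009086.2 are annotated as readthrough genes, whose reads can belong to the genes they span. AC104662.2 had 797 counts over libraries 3 and 4 and 0 over libraries 1 and 2, so it was at least 266-fold higher if the second sum is set to 3 counts, a limit for counting error only. SLC6A14, an amino acid transporter, had 107 and 127 CPM in NS 3 and 4 against 8.98 and 6.41 CPM in NS 1 and 2, and 3.41 and 6.52 CPM in double 3 and 4 against 1.69 and 1.62 CPM in double 1 and 2. It rose by 3.52 (SE 0.36, adjusted p = 2.63e-06; interaction adjusted p = 0.0234).

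Within groups, the set difference was called for 5754 genes (39.4%) in BRG1 knockdown, 3097 (21.2%) in BRM knockdown, 4005 (27.4%) in double knockdown and 5190 (35.5%) in NS. Higher and lower calls numbered 3190 (21.8%) and 2564 (17.5%) in BRG1 knockdown, 2429 (16.6%) and 668 (4.57%) in BRM knockdown, 2580 (17.6%) and 1425 (9.75%) in double knockdown and 2640 (18.1%) and 2550 (17.4%) in NS. The BRM group has a single library numbered 3, which is assumed to vary like the other libraries, and without BRM 2 the count of that group was 5781. Leaving out 1 library of the group gave 2843 to 3788 genes in BRG1 knockdown, 2655 to 5781 in BRM knockdown, 1408 to 4498 in double knockdown and 2392 to 2883 in NS, and the GC and length correction gave 1386 in BRM knockdown and 2259 in double knockdown. In 1301 genes (8.9%) the difference was called in all 4 groups in the same direction, 1127 (7.71%) of them higher and 174 (1.19%) lower. The set difference itself differed between groups for 788 genes (5.39%), of which 335 (2.29%) were also called over all groups. Against NS, the set difference differed for 364 (2.49%) genes in BRG1 knockdown, 330 (2.26%) in BRM knockdown and 542 (3.71%) in double knockdown. The count of 788 rests on single libraries: it was 3051 without BRM 2, 2687 without BRM 1 and 2097 without double 4, at most 380 and at least 235 without any other library except BRM 3 and double 3, and 4858 without BRM 2, BRG1 3 and double 3 together.

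**Figure D5:**
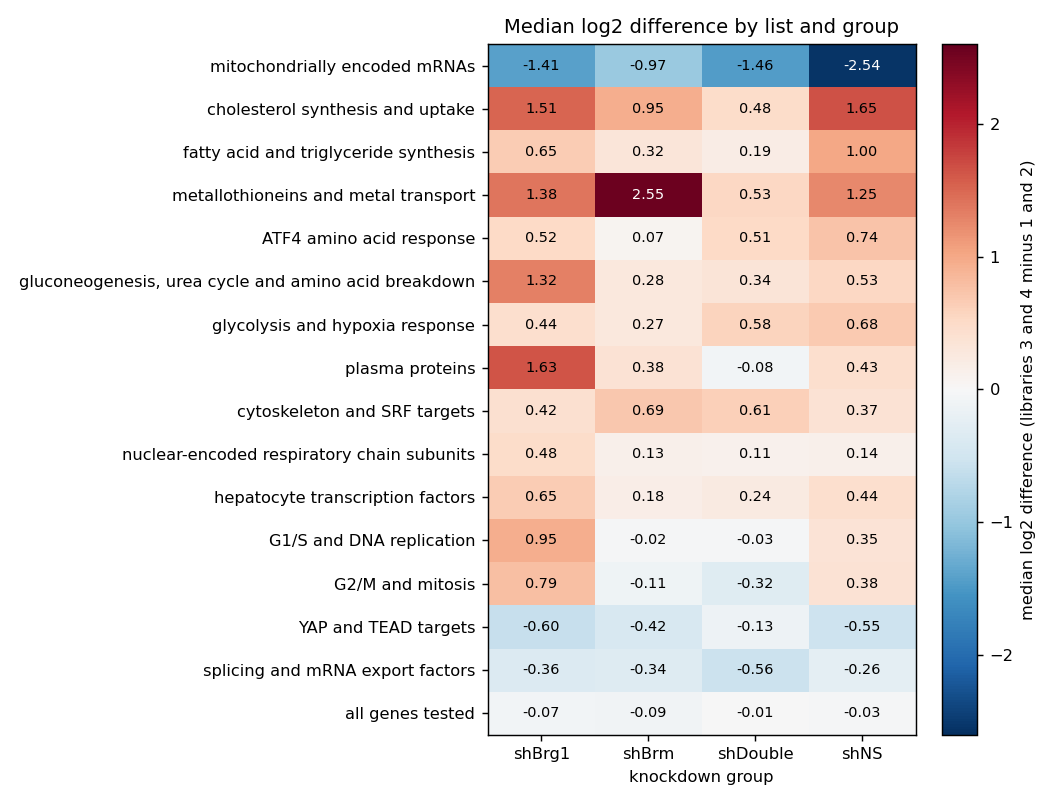
Median log2 difference (libraries 3 and 4 minus libraries 1 and 2) of each list within each knockdown group, printed in each cell and coloured by value. Plasma proteins stand at 1.63 in BRG1 knockdown and -0.08 in double knockdown, and the mitochondrially encoded mRNAs are below 0 in all 4 groups.

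HAMP, COL1A1 and KRT7, each with a called interaction, had differences of opposite sign in different groups. HAMP, which encodes hepcidin, the hormone that restrains iron export, had 83.7 and 69.0 CPM in BRG1 3 and 4 against 14.9 and 13.5 CPM in BRG1 1 and 2, but 44.7 and 23.8 CPM in NS 3 and 4 against 192 and 213 CPM in NS 1 and 2. Its set difference was larger by 5.00 in BRG1 knockdown than in NS (SE 0.47, adjusted p = 0.00103, edgeR). COL1A1, a collagen I chain, had 41.4 and 35.3 CPM in BRG1 3 and 4 against 188 and 239 CPM in BRG1 1 and 2, whereas it had 34.0 and 24.5 CPM in double 3 and 4 against 12.4 and 10.2 CPM in double 1 and 2. Its difference was -2.48 in BRG1 knockdown, 0.52 in BRM knockdown, 1.38 in double knockdown and -1.94 in NS (interaction adjusted p = 0.000226). KRT7, a keratin of bile duct cells, had 0.369 and 0.418 CPM in NS 3 and 4 against 9.13 and 6.41 CPM in NS 1 and 2, and 1.05 and 0.572 CPM in double 3 and 4 against 0.109 and 0.202 CPM in double 1 and 2 (interaction adjusted p = 0.0022). The AKR1C1 difference was 2.79 in BRG1 knockdown, 0.31 in BRM knockdown, 0.02 in double knockdown and -0.23 in NS (interaction adjusted p = 0.00134), with reads that near-identical AKR1C copies may share. TIE1, an endothelial receptor kinase, had differences that were above 0 in all groups but of unequal size, 0.55 in BRG1 knockdown, 2.20 in BRM knockdown, 3.45 in double knockdown and 0.13 in NS (interaction adjusted p = 0.000337).

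Of 8 cholangiocyte markers tested 2 were higher and 2 lower, with summed levels of 1600.4 to 5541 CPM in libraries 3 and 4 and 1226 to 3842 CPM in libraries 1 and 2. Of 4 stromal markers 1 was higher and 1 lower, with sums of 62.3 to 215 CPM in libraries 3 and 4 and 91.8 to 298 CPM in libraries 1 and 2. Of 9 blood and endothelial markers 4 were higher and 1 lower. Of 4 neural and HEK293-type markers, called neural below, 1 was higher and none lower. Their sums were 265 to 1705 CPM (blood and endothelial) and 622 to 1213 CPM (neural) in libraries 3 and 4, against 144 to 800.0 CPM and 249 to 853 CPM in libraries 1 and 2. With NS libraries only 1 cholangiocyte marker was higher and 6 were lower of 8, with a median difference of -0.72. The blood and endothelial markers had a median difference of 0.79 over all groups. The neural sum was higher in libraries 3 and 4 of every group without overlap, with 1213 and 1157 CPM in BRG1 3 and 4 against 853 and 852 CPM in BRG1 1 and 2, 637 CPM in BRM 3 against 249 and 385 CPM in BRM 1 and 2, 912 and 834 CPM in double 3 and 4 against 530.0 and 506 CPM in double 1 and 2 and 622 and 675 CPM in NS 3 and 4 against 459 and 453 CPM in NS 1 and 2. CD3E, NEFL, NEFM and STMN2 had no counts in any library. A mean under 1 CPM was found in 7 of the 10 neural and HEK293-type markers, so few genes carried that sum. The same held for 7 of 12 blood and endothelial and 6 of 10 stromal markers. The part of these markers in the set difference was not tested.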

How the data were processed

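The authors deposited a table of estimated counts per gene symbol for 15 libraries. The submitters' processing notes name kallisto, DESeq2 and GRCh38, with no version, and neither the transcript annotation nor strandedness is recorded there. The deposited counts are whole numbers and were used as they stand. Totals of 11500149 to 27187991 counts set the precision. The authors' comparison tables were not used, since they hold no column for the replicate sets.

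Of 35012 genes, 14621 passed edgeR's filterByExpr by group. Counts were scaled by TMM and fitted with edgeR 4.0.16 (R 4.3.3) by robust quasi-likelihood, with knockdown group and set as terms, and with a mean per group and set for within-group differences and the interaction of 3 degrees of freedom. Adjusted p is Benjamini-Hochberg over all genes tested, with a threshold of 0.05. CPM use TMM-scaled totals. Library measures were tested by exact permutation of the set within groups (648 relabellings, smallest p 0.00154). Alternatives used DESeq2 1.42.0 and limma 3.58.1, other filters and scaling, blocks by replicate number, left-out libraries, and offsets for GC content and transcript length (natural splines, 5 degrees of freedom, GENCODE 29 by symbol, 98.3% of tested genes). The procedures were tested on simulated data.

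The comparison and the gene lists were chosen with earlier results of these data known, and 58 of 1331 list entries matched no gene in the table used. Named genes are the 12 largest increases and 12 largest decreases averaging at least 2 CPM with sets that overlapped in no group, up to 4 genes per list by smallest adjusted p, the mitochondrial mRNAs, SMARCA4 and SMARCA2, the 6 genes with the smallest interaction p and the 3 largest interaction terms each way per knockdown, and the 10 most abundant genes. Others were named after their values were seen: MT2A, MT1M, MT1A, MTF1, SLC30A1, SLC39A10, ATF4, ASNS, PHGDH, NUPR1, MVK, SCD, ANKRD1, TGFB2, PNISR, CLK1, MTERF2, TFAM, ADM, EPO, SLC2A1, GAPDH, TPM2, FGA, FABP1 and CEBPA. Results for some genes that this rule names are not reported here.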

Additional observations from a re-analysis of the deposited data

Results flagged for a closer look

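Within groups, in which libraries of both sets stand together, 21 of 763 combinations of a named gene or library measure with a group or set had a single library whose gap to its nearest neighbour, as a share of the group's range, passed the critical value (0.829 for 4 libraries). All of these were named genes. The critical value is set for 5% of groups drawn from a single population. These groups hold both sets, so the count of 21 cannot be read against that share. The BRM group was not screened. The value in brackets is that share. Double 4 was the highest library of its group in APOA1 (0.898), APOB (0.883), CDT1 (0.829), CYP2W1 (0.891), HNF4A (0.838), HPX (0.929), IFI35 (0.879), INCENP (0.933), PLK1 (0.843), PLTP (0.95), SCD (0.867), SDF2L1 (0.928) and TFR2 (0.918). NS 3 was the highest library of its group in CD14 (0.858) and MT1M (0.908). NS 2 was the lowest library of its group in SMARCA2 (0.968) and SMARCA4 (0.897). Double 3 was the lowest library of its group in ALB (0.889). NS 2 was the highest library of its group in ATF4 (0.882). Double 4 was the lowest library of its group in MTF1 (0.915). BRG1 4 was the lowest library of its group in SMARCA4 (0.853). The cause of these gaps was not tested.

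The set difference differed between knockdown groups in 33 of 246 named genes (interaction of set and knockdown with 3 degrees of freedom, edgeR quasi-likelihood, Benjamini-Hochberg adjusted p in brackets). Some of these genes were named because of their interaction in these same data, so the count of 33 is no measure of how common it is. Over all 14621 genes tested the interaction was called for 788 (5.39%). Of lipid and liver genes these were ACAT2 (0.00206), SCD (0.00305), FADS6 (0.00401), FABP1 (0.0154), ALB (0.00566), FGA (0.0111), SERPINA3 (0.0225), CPB2 (0.00107), HAMP (0.0023) and PKLR (0.0148). Of metal, stress and reductase genes they were MT1E (0.0162), MT2A (0.0152), NUPR1 (0.0022), AKR1B10 (0.00962), AKR1C1 (0.00134) and AKR1C2 (0.00134). Of matrix, signalling, marker and cell cycle genes they were COL1A1 (0.000226), COMP (0.00206), PDGFRB (0.0327), TIE1 (0.000337), SMAD6 (0.0192), SMAD7 (0.0226), CCND1 (0.0135), CD24 (0.0319), KRT7 (0.0022), SOX9 (0.0225), SPP1 (0.0437) and LYZ (0.00206). The others were SLC6A14 (0.0234), SAMD11 (0.00343), AC138811.2 (0.0409), LSM12P1 (0.00603) and POC1B-GALNT4 (0.0089). LYZ, lysozyme, made up most of the blood and endothelial marker sum in most libraries. It had 1184 and 1343 CPM in BRG1 3 and 4 against 761 and 657 CPM in BRG1 1 and 2, and 171 CPM in BRM 3 against 76.6 and 89.7 CPM in BRM 1 and 2. It had 273 and 256 CPM in double 3 and 4 against 389.8 and 326 CPM in double 1 and 2, and 1497 and 1654 CPM in NS 3 and 4 against 444 and 469 CPM in NS 1 and 2. Its set difference in double knockdown was -2.22 relative to that in NS (edgeR, adjusted p = 0.000673). In LSM12P1 and POC1B-GALNT4 the reads may be shared with related or spanned genes. The number of genes with a called interaction over all genes depended on which library was left out. Whether each call listed here holds without any 1 library was not tested.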

How the results depend on the processing

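The number of genes called for the set difference, 8134, was 6737 to 9781 under the other settings over all genes, and 7273 to 8442 with 1 library left out. It was 8042 with RLE size factors, 8059 with no filter on low counts, 8231 in DESeq2 and 7803 with NS libraries only. The GC and length correction, added after the data were seen, gave 7022 genes, 4115 higher and 2907 lower, against 3991 higher and 4143 lower without it. A replicate block gave 7802 genes with the numbers as a fixed factor, 9781 with a random effect and 6737 together with the GC and length correction. The random effect was fitted with a negative correlation within replicate number (-0.14). Differences between numbers 1 and 2, or 3 and 4, correlated across genes by -0.12 to 0.17 between groups. The highest value was that of 3 minus 4 in BRG1 and double knockdown. In both, library 3 had the larger mitochondrial share (3.55 against 1.78% in BRG1, 3.46 against 1.79% in double). The numbers were not read as pairs in the main fit. The mitochondrial share differed by -5.60 to -5.03 percentage points with 1 library left out, and the setting without mitochondrial rRNAs was not run, since their values are not analysed here.

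The count for the interaction depended most on the setting. It was 788 genes, and 2543 with no filter on low counts, 1814 in DESeq2 and 4858 without BRM 2, BRG1 3 and double 3 together. With 1 library left out it was 235 (without NS 4) to 3051 (without BRM 2), and it moved by over 1.5 times without any single library other than BRM 3 and double 3. Without BRM 1 it was 2687 and without double 4 it was 2097, and without each of the other 9 libraries it was at most 380. Within groups, leaving out 1 library of the group gave 2843 to 3788 genes in BRG1 knockdown, 2655 to 5781 in BRM knockdown, 1408 to 4498 in double knockdown and 2392 to 2883 in NS. The highest BRM count was that without BRM 2. With GC and length correction 1386 genes were called in BRM knockdown and 2259 in double knockdown. Groups then left with 1 library in a set were assumed to vary like the others, and the cause of these shifts was not tested.

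Of 237 genes named for other reasons than their interaction, 212 kept their direction and call with the GC and length correction and 207 with NS libraries only. The direction turned in EEF1A1 with the correction (0.26), and with NS libraries only in ACTA2 (-0.56), MLXIP (-0.026) and SPP1 (-0.38). Estimated counts carry no record of reads shared between copies, which limits paralogs and pseudogenes.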
